A study of Homo sapiens with 6 samples.

Results

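The genes that encode the translation initiation factors (EIF1 to EIF5 families), the elongation factors (EEF1 and EEF2 families) and the peptide release factors (ETF1, GSPT1 and GSPT2) were examined in H9 cells, a cutaneous T-cell lymphoma (CTCL) cell line, after treatment with AZD4573, a selective inhibitor of the transcription kinase CDK9. Members were taken by name: gene symbols that begin with EIF1 to EIF5, EEF1 or EEF2, or that are ETF1, GSPT1 or GSPT2, without symbols that end in P plus digits (144 genes, mostly processed pseudogenes) or that hold a hyphen (7 genes). This gave 68 of the 61541 genes in the count table. The symbol rule also removes the 4E-binding proteins, which are described among the partner genes, and it takes enzymes that modify elongation factors or phosphorylate eIF2. Of the 68 members, 67 passed the filter on low counts, and EIF4E1B, a cap-binding protein known from oocytes, had 0 counts in each library, which allows up to 0.0589 CPM (counts scaled to the library total) in the shallowest one (counting error only).

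The RNA-seq libraries, for which the labels describe poly(A) selection and the study's supplemental methods depletion of ribosomal RNA, came from wild-type H9 cells, 3 treated with DMSO, the vehicle, and 3 treated with AZD4573 for 4 h, so the comparison concerns 1 cell line, 1 compound and 1 time. H9 was used as a representative of MCL-1 independent T-cell lymphoma, and RNA-seq was used to ask which transcripts depend on CDK9. Total counts were 70367303 to 76571157 with DMSO and 52101868 to 63795185 with AZD4573. No label says whether replicates were separate cultures, so p-values measure the spread between these libraries, which may be technical. CD3D, CD3E, CD3G, CD5, LCK, ZAP70, TRBC1 and TRBC2 were present at 130 to 515 CPM in each library, which goes with the T-cell label. CD4 (3.61 to 7.35 CPM) and CD28 (4.18 to 6.29 CPM) were low and CD2 was at most 0.166 CPM. Of the markers of other cell types, CD79A (55.0 to 98.4 CPM) and EPCAM (132 to 167 CPM) were detected, and the remaining ones did not exceed 5.72 CPM. Their part in the results was not tested.

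Translation begins when eIF2 brings the initiator tRNA to the small ribosomal subunit, on which eIF3 acts as the scaffold, while the cap-binding complex eIF4F (the cap-binding protein eIF4E, the helicase eIF4A and the scaffold eIF4G) recruits the mRNA. eIF1, eIF1A and eIF5 select the start codon, eIF5B joins the large subunit, eEF1A delivers aminoacyl-tRNA to the ribosome, eEF2 moves the ribosome along the mRNA, and eRF1 with eRF3 (ETF1 with GSPT1 or GSPT2) releases the finished chain. Many mRNAs of the translation apparatus begin with a C followed by a run of pyrimidines, the terminal oligopyrimidine (TOP) motif, through which mTORC1 and the RNA-binding protein LARP1 control their translation and stability. CDK9 releases RNA polymerase II (RNAP2) from its pause near the start site, so that its inhibition lowers the synthesis of new transcripts, and the level left after hours of treatment depends on transcript stability as well as synthesis.

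Start-site sequences are shown for some of these genes, picked by both their start sequence and their change with AZD4573. A link between the start sequence and the change was not tested. Not printed are the 11 members without a pyrimidine start that rose, EEF2K and EEF1G among them. The pyrimidine-start members that were not called (EIF2A, EIF2S3, EIF2S3B and EIF3M) are not printed either. Each run holds 40 bases before and 10 bases from an annotated start (RefSeq, GRCh38.p14, 5′ to 3′ on the strand of the gene). Capitals mark TATAA beginning 40 to 20 bases before the start and, at the start itself, C followed by at least 4 of C or T. Of the 8 genes with such a pyrimidine start and a call higher, 7 come first, then EIF4A2, which has both sequences and was called lower, and then genes without a pyrimidine start that were called lower.
EEF1A1 (chr6:73521023-73521072, minus strand): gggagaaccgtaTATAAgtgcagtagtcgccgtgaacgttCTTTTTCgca
EEF1B2, its downstream start (chr2:206159855-206159904, plus strand): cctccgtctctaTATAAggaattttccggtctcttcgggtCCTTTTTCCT
EEF2 (chr19:3985454-3985503, minus strand): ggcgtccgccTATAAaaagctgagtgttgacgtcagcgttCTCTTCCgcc
EIF4B (chr12:53006416-53006465, plus strand): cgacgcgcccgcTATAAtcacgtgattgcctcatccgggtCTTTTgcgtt
EIF3F (chr11:7987297-7987346, plus strand): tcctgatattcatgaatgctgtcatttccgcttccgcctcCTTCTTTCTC
EIF3K (chr19:38619148-38619197, plus strand): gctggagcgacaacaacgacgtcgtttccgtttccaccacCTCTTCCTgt
EIF2D (chr1:206612456-206612505, minus strand): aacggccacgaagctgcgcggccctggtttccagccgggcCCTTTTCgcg
EIF4A2 (chr3:186783537-186783586, plus strand): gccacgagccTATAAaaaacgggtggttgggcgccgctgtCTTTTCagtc
EIF4A1 (chr17:7572785-7572834, plus strand): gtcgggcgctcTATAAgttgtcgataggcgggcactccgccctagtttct
EIF4E (chr4:98929124-98929173, minus strand): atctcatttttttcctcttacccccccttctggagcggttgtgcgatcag
EIF2AK3 (chr2:88627455-88627504, minus strand): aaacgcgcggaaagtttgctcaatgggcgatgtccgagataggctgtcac
EIF5A2 (chr3:170908628-170908677, minus strand): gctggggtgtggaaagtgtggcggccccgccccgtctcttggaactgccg

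Upon AZD4573 treatment, 28 members rose and 28 fell at an adjusted p under 0.05 with TMM normalisation, and 11 were not called (edgeR quasi-likelihood test, Benjamini-Hochberg adjustment over 17678 genes). The shares of 41.8% higher and 41.8% lower lie close to the background of all genes tested, of which 37.3% were called higher and 37.4% lower (74.7% in either direction). These shares of all genes are also the background for each role group below. No difference of a role group from them, or between role groups, was tested. By at least 1.5-fold, 6 members (8.96%) were higher and 12 (17.9%) lower, beside 22.7% and 23.7% of all genes, and the difference between these shares was not tested. The 3 AZD4573 libraries lay beyond the 3 DMSO libraries for 61 of the 67 members (91.0%), 31 above and 30 below, against 77.8% of all genes (39% above and 38.7% below). This difference was not tested either, and all genes were not matched to the members by level, on which such separation depends. In bulk RNA, fewer cells that express a gene and less of its RNA per cell cannot be told apart.

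The median log2 fold change of the members was 0.03, with quartiles of -0.34 and 0.33, and the median of all genes was also 0.03, with quartiles of -0.59 and 0.58. Direction depended on the scaling. The mitochondrion transcribes its own mRNAs without RNAP2, and these, whose share may depend on the kind of library, took 3.04 to 3.22% of the counts with DMSO and 4.67 to 4.98% with AZD4573. With libraries scaled to the 13 mitochondrial mRNAs, the median of all genes moved to -0.71 and that of the members to -0.71, 61 members were called lower and 1, EEF2K, was called higher. Values below are therefore changes relative to the bulk of the transcriptome, as TMM sets it. A change of scaling shifts all genes by nearly the same amount. The distance of a role group from the median of all genes is therefore nearly fixed in advance. With TMM and mitochondrial scaling it was 0.25 and 0.24 for eIF3 and 0.44 and 0.44 for the elongation factors. The eIF4F group lay 0.35 below that median under both, which is no separate support for these differences.

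**Figure D1:**
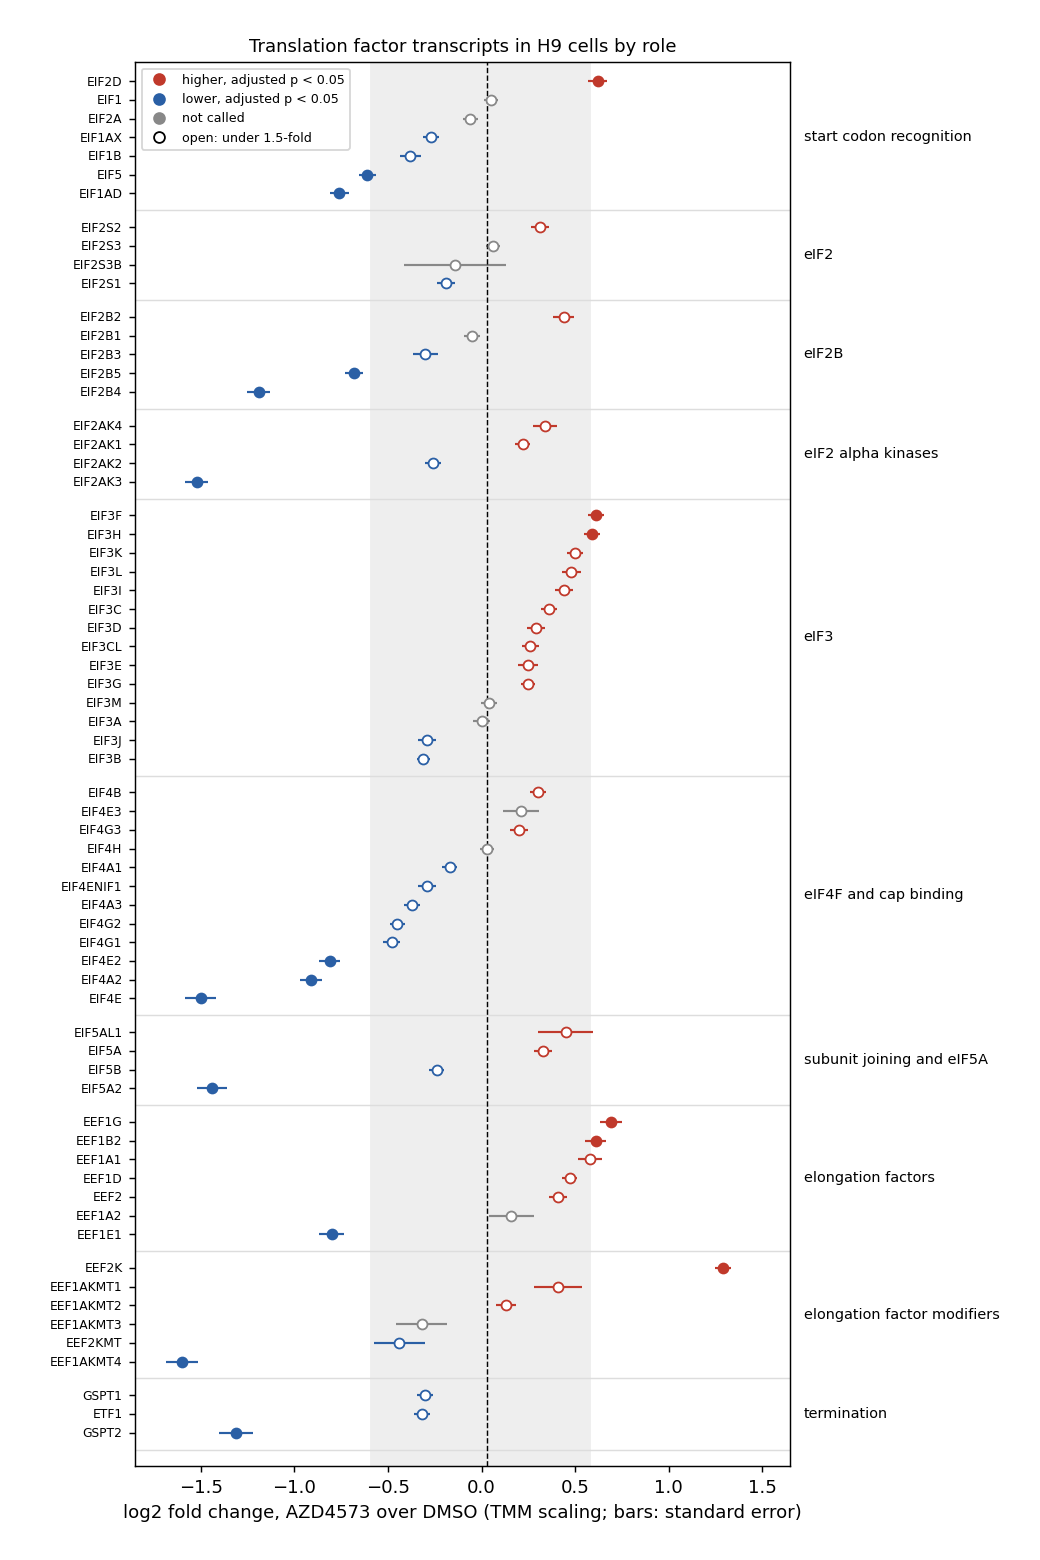
The log2 fold change (AZD4573 over DMSO, TMM scaling) of 66 members (all tested but EIF1AY), grouped by role; bars are standard errors, red marks a call higher, blue a call lower and grey no call, filled points passed 1.5-fold as well as adjusted p, the dashed line is the median of all genes and the grey band holds the quartiles of all genes. Most eIF3 subunits and elongation factors sit right of the dashed line and most eIF4F and release factors left of it, and under scaling to mitochondrial mRNAs each member but EEF2K lies below 0.

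**Figure D2:**
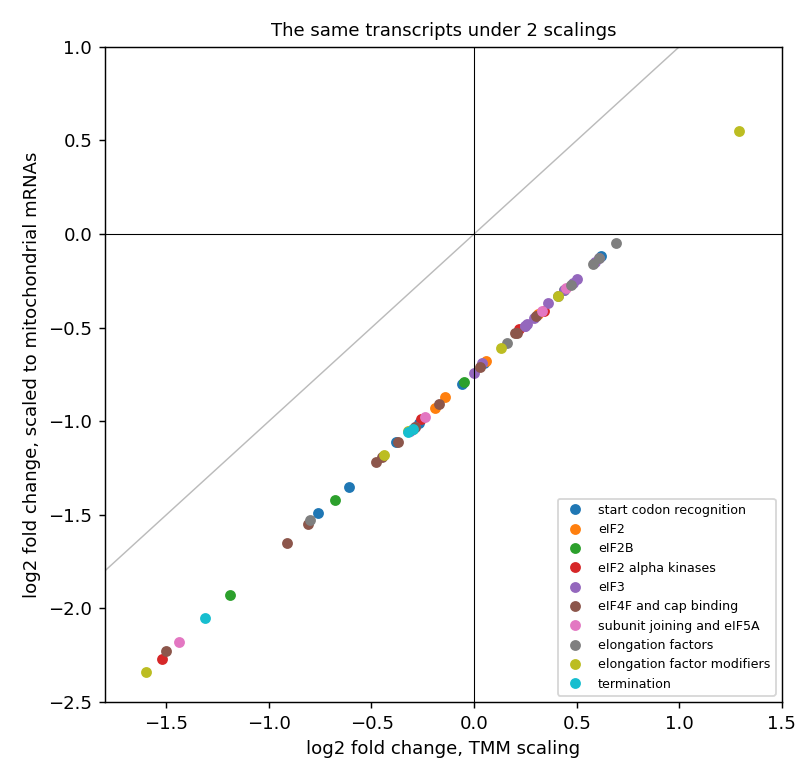
The log2 fold change of the same 66 members under TMM scaling (x axis) and under scaling to the 13 mitochondrial mRNAs (y axis), coloured by role; the grey diagonal marks equal values. The points form a line below the diagonal, so each member moved down by a similar amount, and EEF2K alone stayed above 0 on the y axis.

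Among the genes for start codon recognition and initiator tRNA delivery outside eIF2, 2 rose, 4 fell and 2 were not called (median log2 fold change -0.17). EIF2D (ENSG00000143486, chr1:206571292-206612465, minus strand), which can deliver tRNA to the ribosome without eIF2 and takes part in recycling, was at 43.4, 39.8 and 40.3 CPM with DMSO and at 62.7, 61.3 and 65.2 CPM with AZD4573. All treated libraries lay above all controls, and the fold change was 1.53 (log2 0.62, SE 0.0521, edgeR adjusted p = 1.4e-07). EIF5, which activates the GTPase of eIF2 at the start codon, was at 322, 319 and 318 CPM with DMSO and at 201, 222 and 204 CPM with AZD4573, a log2 fold change of -0.61. EIF1AD, a relative of eIF1A, showed the largest fall of the group, from 58.7, 63.5 and 61.8 CPM to 36.9, 36.5 and 35.7 CPM (log2 -0.76, SE 0.0505, edgeR adjusted p = 1.3e-08). In both genes the groups did not overlap. EIF1, the gatekeeper of start codon choice, was at 351, 348 and 351 CPM with DMSO and at 367, 356 and 363 CPM with AZD4573 and was not called (log2 0.05, edgeR adjusted p = 0.243), whereas its paralogue EIF1B fell, from 42.9, 41.7 and 41.1 CPM to 34.5, 31.4 and 31.1 CPM (log2 -0.38). EIF1AX fell as well (log2 -0.27), and EIF2A (log2 -0.06) was not called. The exons of EIF2A overlap those of SERP1 on the opposite strand, which held 231% of the EIF2A counts with DMSO and 249% with AZD4573, and the counting did not use strand. EIF1AY is counted in these totals without values.

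The subunits of eIF2 changed little. EIF2S2, the β subunit, rose from 218, 199 and 193 CPM to 246, 255 and 253 CPM (log2 0.31, SE 0.048, edgeR adjusted p = 5.8e-05). EIF2S1, the α subunit that is phosphorylated under stress, fell from 97.4, 91.7 and 89.2 CPM to 82.9, 79.2 and 81.3 CPM (log2 -0.19, SE 0.0473, edgeR adjusted p = 0.00219). The groups were separate in both genes. The γ subunit EIF2S3 (log2 0.06) and EIF2S3B, a near copy of it at 0.546 to 0.923 CPM (log2 -0.14, SE 0.273), were not called, and reads of such copies are split between them by the counting.

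Genes of eIF2B, which reloads eIF2 with GTP, went apart by subunit: 1 rose, 3 fell and 1 was not called, with a median log2 fold change of -0.30, and all 5 fell with mitochondrial scaling. EIF2B4, the δ subunit, had 37.6, 40.2 and 41.0 CPM with DMSO and 17.3, 18.4 and 16.5 CPM with AZD4573, 2.28-fold lower (log2 -1.19, SE 0.0626, edgeR adjusted p = 1.4e-09). EIF2B5, the catalytic ε subunit, fell by 0.68 on the log2 scale and EIF2B3, the γ subunit, by 0.30. EIF2B2, the β subunit, rose from 31.5, 29.2 and 28.3 CPM to 39.8, 41.1 and 39.5 CPM (log2 0.44, SE 0.056, edgeR adjusted p = 9.1e-06). EIF2B1, the α subunit, was not called (log2 -0.05). Transcripts that overlap on the opposite strand held many reads beside some of these genes: counts of DDX55 were 73.9% of those of EIF2B1 with DMSO and 36.5% with AZD4573, those of GTF2H3 65.1% and 99.5%, and GTF3C2-AS2 counts were 19.6% and 45.0% of those of EIF2B4.

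Each eIF2α kinase senses a different stress and, by phosphorylating eIF2, lowers initiation. EIF2AK3 (PERK, the kinase of endoplasmic reticulum stress; ENSG00000172071, chr2:88556741-88691518, minus strand) had 36.6, 39.4 and 36.1 CPM with DMSO and 12.5, 13.3 and 13.1 CPM with AZD4573. This 2.88-fold lower level (log2 -1.52, SE 0.0615, edgeR adjusted p = 1.7e-10) was the second largest fall among members. EIF2AK2 (PKR, which senses double-stranded RNA) fell by 0.26 on the log2 scale. EIF2AK4 (GCN2, which senses uncharged tRNA) rose from 29.1, 28.4 and 26.4 CPM to 32.9, 37.2 and 35.6 CPM (log2 0.34, SE 0.0624, edgeR adjusted p = 0.00026), with no overlap between the groups. EIF2AK1 (HRI, the kinase controlled by haem) rose by 0.22 on that scale. These kinases are also the entry to the integrated stress response, and under mitochondrial scaling all 4 were lower.

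Of the 14 genes for eIF3 subunits, 10 rose, 2 fell and 2 were not called, whereas 0 were higher and 13 lower with mitochondrial scaling (median log2 fold change 0.27 and -0.47). With TMM scaling 37.3% of all genes tested were called higher and 37.4% lower, and the difference was not tested. EIF3F (ENSG00000175390, chr11:7970251-8001862, plus strand), one of the paired MPN-domain subunits, was at 181, 174 and 173 CPM with DMSO and at 260, 266 and 281 CPM with AZD4573. It was 1.53-fold higher (log2 0.61, SE 0.043, edgeR adjusted p = 2.2e-08), and its MPN partner EIF3H moved by nearly as much, from 190, 178 and 175 CPM to 265, 271 and 281 CPM (log2 0.59). EIF3K (log2 0.50), EIF3L (log2 0.48), EIF3I (log2 0.44), EIF3D (log2 0.29), EIF3E (log2 0.25) and EIF3G (log2 0.25) also rose. Within eIF3 the peripheral subunits EIF3K and EIF3L, which bind each other, had nearly equal changes, with EIF3I close to them. A link between the binding of subunits and their change was not tested. EIF3B, the scaffold subunit to which EIF3I and EIF3G attach, went the other way, from 440, 439 and 434 CPM to 355, 353 and 352 CPM (log2 -0.31, SE 0.0371, edgeR adjusted p = 4.8e-06). EIF3J, a loosely bound subunit, fell by 0.29 on the log2 scale. EIF3A, the largest subunit, lay at 925 to 1017 CPM over all 6 libraries with overlapping groups (log2 0.00, SE 0.0442, edgeR adjusted p = 0.962), and EIF3M was not called either (log2 0.04). EIF3C and its copy EIF3CL rose from 323, 306 and 320 CPM to 389, 421 and 413 CPM (log2 0.36) and from 197, 196 and 187 CPM to 223, 225 and 245 CPM (log2 0.26). Reads of this pair can be assigned to either gene, so their separate values are uncertain.

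**Figure D3:**
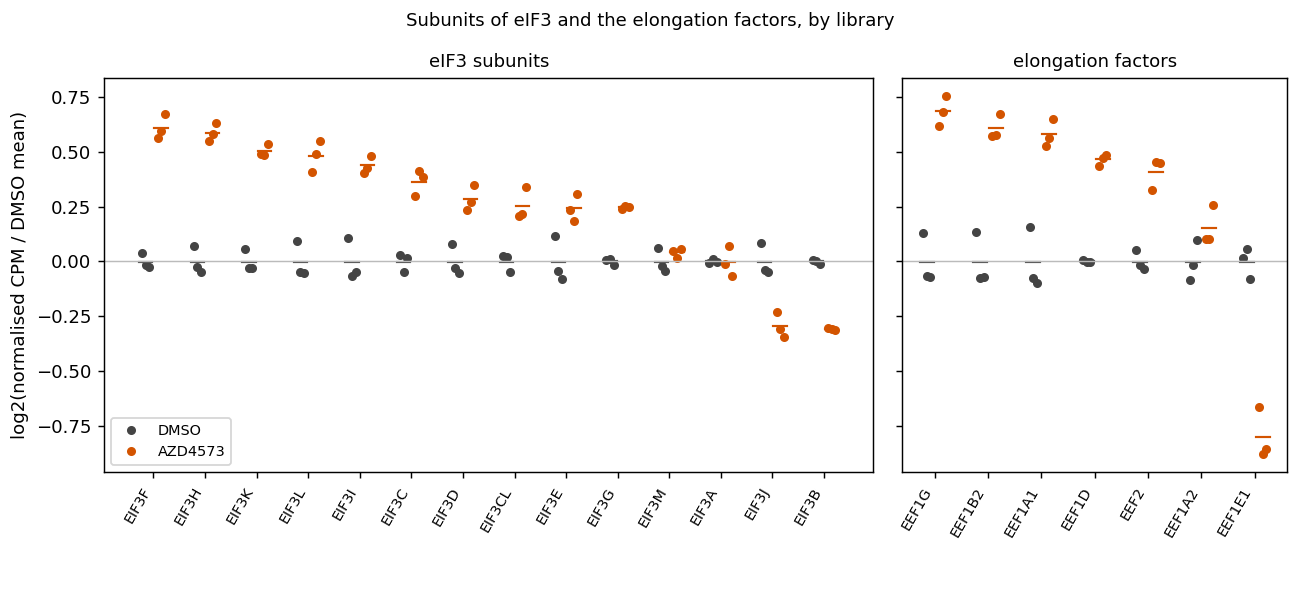
The log2 ratio of each library's normalised CPM to the DMSO mean for the eIF3 subunits (left) and elongation factors (right); grey points are DMSO libraries, orange points AZD4573 libraries and short lines group means. Subunits of eIF3 spread from EIF3F at 0.61 to EIF3B at -0.31 with little scatter within a group, and under mitochondrial scaling each of these genes lies below 0.

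The eIF4F and cap-binding group showed the opposite balance: 2 of 12 tested genes rose, 8 fell and 2 were not called (median log2 fold change -0.33). All 12 fell with mitochondrial scaling. The share of all genes called lower with TMM scaling was 37.4%, and the difference was not tested. EIF4E (ENSG00000151247, chr4:98879276-98929133, minus strand), which binds the cap and is held back by the 4E-binding proteins, was at 80.9, 78.8 and 76.7 CPM with DMSO and at 32.8, 25.1 and 25.7 CPM with AZD4573. All AZD4573 libraries lay far below the controls, with replicate 1 the highest of them, and the level was 2.83-fold lower (log2 -1.5, SE 0.0827, edgeR adjusted p = 2.1e-09). EIF4E2, a cap-binding homologue that represses translation, fell from 60.1, 55.1 and 55.3 CPM to 32.9, 33.2 and 30.9 CPM (log2 -0.81). The level of EIF4E3, another cap-binding homologue, was low, at 6.19 to 6.73 CPM and 6.99 to 8.35 CPM, and was not called (log2 0.21, edgeR adjusted p = 0.0663).

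Among the helicases, EIF4A1 fell little, from 658, 638 and 645 CPM to 574, 568 and 583 CPM (log2 -0.17, SE 0.0387, edgeR adjusted p = 0.00136). EIF4A2, its close paralogue, fell much further, from 320, 369 and 380 CPM to 193, 194 and 182 CPM (log2 -0.91, SE 0.0588, edgeR adjusted p = 9.5e-09). EIF4A3, a helicase of the exon junction complex, fell from 277, 257 and 256 CPM to 202, 205 and 205 CPM (log2 -0.37). In each of the 3 helicase genes the groups were separate. EIF4A1 shares exons with the readthrough gene SENP3-EIF4A1, whose counts were 3.7% of its own with DMSO and 4.28% with AZD4573. EIF4B, a cofactor of the helicase and a substrate of S6 kinase, was the largest rise of the group, from 509, 480 and 475 CPM to 587, 617 and 596 CPM (log2 0.30, SE 0.0428, edgeR adjusted p = 2.6e-05), and the other cofactor EIF4H was not called (log2 0.03).

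The scaffold EIF4G1 fell from 1057, 1125 and 1117 CPM to 799, 818 and 752 CPM (log2 -0.48, SE 0.046, edgeR adjusted p = 5.1e-07). EIF4G2 (DAP5), which lacks the site for eIF4E, fell from 1001, 964 and 947 CPM to 709, 696 and 723 CPM (log2 -0.45). EIF4G3, the second full-length scaffold, moved the other way, from 71.9, 76 and 78.2 CPM to 87.3, 88.3 and 84.8 CPM (log2 0.20, SE 0.0471, edgeR adjusted p = 0.00148, and 0.10 with edgeR adjusted p = 0.091 when EIF4G3 was scaled by library size only). EIF4ENIF1 (4E-T), which carries eIF4E to the nucleus and to processing bodies, fell by 0.29 on the log2 scale, and SFI1, which overlaps it on the opposite strand, had 72.0% of its counts with DMSO and 177% with AZD4573.

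EIF5A, which carries the amino acid hypusine and helps the ribosome through stretches that stall it, rose from 1021, 932 and 924 CPM to 1171, 1189 and 1247 CPM (log2 0.33, SE 0.0487, edgeR adjusted p = 3.8e-05). Its paralogue EIF5A2 (ENSG00000163577, chr3:170888418-170908644, minus strand) was 2.71-fold lower, from 16.4, 15.8 and 14.8 CPM to 5.93, 5.45 and 5.99 CPM (log2 -1.44, SE 0.0813, edgeR adjusted p = 2.7e-09). Both changes separated the groups. EIF5AL1, an intronless copy of EIF5A, was at 2.17 to 2.46 CPM with DMSO and at 2.63 to 3.54 CPM with AZD4573 (log2 0.45, edgeR adjusted p = 0.0141), and reads of EIF5A can be assigned to it. The call of EIF5AL1 was lost with library size only (edgeR adjusted p = 0.052), with DESeq2 (adjusted p = 0.051) and without DMSO replicate 2 or AZD4573 replicate 3 (edgeR adjusted p = 0.056 and 0.076). EIF5B, which joins the ribosomal subunits, fell by 0.24 on the log2 scale.

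Of the 7 elongation factor genes, 5 rose, 1 fell and 1 was not called (median log2 fold change 0.47), while 0 were higher and 5 lower with mitochondrial scaling (median -0.27). Beside them, 37.3% of all genes tested were called higher with TMM scaling, and the difference was not tested. EEF1A1 (ENSG00000156508, chr6:73489308-73525587, minus strand), the carrier of aminoacyl-tRNA, alone held 0.77% ± 0.0691 of all counts with DMSO and 1.07% ± 0.0404 with AZD4573 (SD, n = 3). It was at 8293, 7058 and 6947 CPM with DMSO and at 10726, 10984 and 11658 CPM with AZD4573. The groups did not overlap, DMSO replicate 1 being the highest control, and the fold change rounded to 1.5 (log2 0.58, SE 0.064, edgeR adjusted p = 2e-06). Before rounding it was just under the 1.5-fold limit, so EEF1A1 is not counted among the members higher by at least 1.5-fold. EEF1G (ENSG00000254772, chr11:62559596-62574086, minus strand), the γ subunit of the exchange factor eEF1B, rose from 1882, 1644 and 1638 CPM to 2641, 2760 and 2910 CPM (log2 0.69, SE 0.0586, edgeR adjusted p = 1.5e-07). An annotated gene without a symbol covers 99.7% of the exon bases of EEF1G on the same strand, but its counts were 0.27% and 0.568% of those of EEF1G. EEF1B2 (ENSG00000114942, chr2:206159585-206162928, plus strand), a catalytic subunit of eEF1B, rose from 478, 414 and 415 CPM to 648, 651 and 695 CPM (log2 0.61, SE 0.0568, edgeR adjusted p = 3.7e-07).

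The second catalytic subunit, EEF1D, and the translocase EEF2 also rose, by 0.47 and 0.41 on the log2 scale. EEF2 stood at 3515, 3350 and 3307 CPM with DMSO and at 4254, 4642 and 4632 CPM with AZD4573. EEF1A2, the form of eEF1A known from muscle and neurons, was at 3.01, 3.15 and 3.41 CPM with DMSO and at 3.42, 3.42 and 3.82 CPM with AZD4573 and was not called (log2 0.16, SE 0.122, edgeR adjusted p = 0.26). EEF1E1, which bears an elongation factor name but is a scaffold of the aminoacyl-tRNA synthetase complex, was the one gene of the group to fall, from 45.9, 47.2 and 42.9 CPM to 28.6, 24.6 and 25 CPM (log2 -0.80, SE 0.0663, edgeR adjusted p = 1.2e-07). The members together held 2.79% ± 0.104 of all counts with DMSO and 3.18% ± 0.0513 with AZD4573 (SD, n = 3). EEF1A1 made up 27.5% ± 1.45 of these member counts with DMSO and 33.7% ± 0.643 with AZD4573.

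Enzymes that act on the elongation factors included both the largest rise and the largest fall of all members. EEF2K (ENSG00000103319, chr16:22206278-22288738, plus strand), the kinase that phosphorylates eEF2 and so slows elongation, was at 107, 112 and 110 CPM with DMSO and at 265, 281 and 259 CPM with AZD4573. Every treated library was far above every control, and the 2.45-fold rise (log2 1.29, SE 0.0442, edgeR adjusted p = 5.4e-11) was the one rise among members that kept its direction with mitochondrial scaling, where the log2 fold change of EEF2K was 0.55. EEF1AKMT4 (ENSG00000284753, chr3:184249672-184258759, plus strand), a lysine methyltransferase of eEF1A, fell 3.03-fold, from 24.7, 20.3 and 22.1 CPM to 7.80, 7.07 and 7.29 CPM (log2 -1.60, SE 0.0853, edgeR adjusted p = 1.6e-09). The readthrough gene EEF1AKMT4-ECE2 shares 49.2% of its exon bases, and its counts were 0% of those of EEF1AKMT4 in both groups. Of the other methyltransferases, EEF1AKMT1 (log2 0.41) and EEF1AKMT2 (log2 0.13, edgeR adjusted p = 0.0472) rose and EEF2KMT fell (log2 -0.44). The call of EEF1AKMT2, whose groups overlapped, was lost under 8 alternatives, among them DESeq2 (adjusted p = 0.14), library size only (edgeR adjusted p = 0.68) and leaving out DMSO replicate 2 or 3 or AZD4573 replicate 1 or 3. That of EEF1AKMT1 was lost without AZD4573 replicate 3 (edgeR adjusted p = 0.055). EEF1AKMT3 was not called (log2 -0.32, edgeR adjusted p = 0.051). METTL1, which overlaps it on the opposite strand, had 671% of its counts with DMSO and 123% with AZD4573, and ALG1 had 232% and 178% of the counts of EEF2KMT.

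All 3 release factor genes fell, under both TMM and mitochondrial scaling (median log2 fold change -0.32 and -1.06), where 37.4% of all genes tested were called lower with TMM scaling. With 3 genes, a difference from that share was not tested. ETF1, which recognises stop codons, went from 151, 143 and 140 CPM to 117, 116 and 115 CPM (log2 -0.32, SE 0.0429, edgeR adjusted p = 1.4e-05). GSPT1, the main eRF3 GTPase, went from 332, 314 and 311 CPM to 262, 263 and 250 CPM (log2 -0.30). GSPT2 (ENSG00000189369, chrX:51743442-51746232, plus strand), a single-exon paralogue of GSPT1, fell 2.48-fold, from 10.7, 9.66 and 10.3 CPM to 4.09, 4.12 and 4.14 CPM (log2 -1.31, SE 0.0902, edgeR adjusted p = 1.7e-08). In none of the 3 genes did a treated library reach a control.

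**Figure D4:**
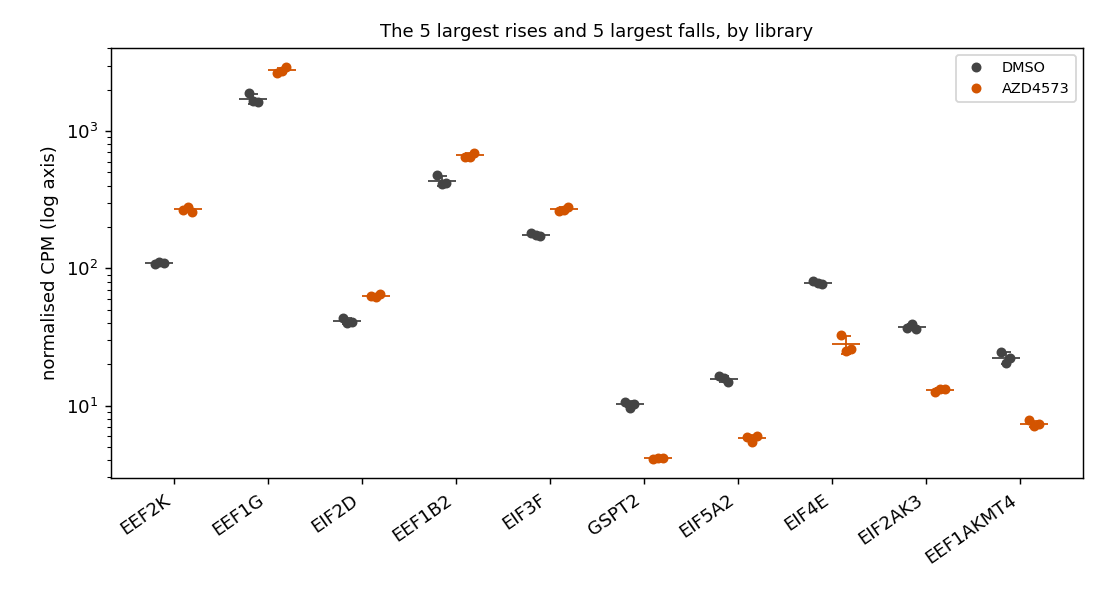
Normalised CPM (log axis) in each library for the 5 members with the largest rises and the 5 with the largest falls; points are libraries, horizontal lines group means and vertical bars SD (n = 3). The groups are separate in each gene, from EEF2K at 110 and 268 CPM to EEF1AKMT4 at 22.4 and 7.38 CPM (means with DMSO and AZD4573), and under mitochondrial scaling EEF2K alone of the 5 rises is still above 0.

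The ratio of counts between paralogues within a library does not depend on how libraries are scaled to each other, and 10 such pairs were compared by an exact permutation test, two-sided, in which 3 against 3 libraries cannot go below p = 0.10. The ratio of EIF5A to EIF5A2 changed most, from 61.1 to 208, a log2 difference of 1.76. On the log2 scale the DMSO libraries had ratios of 5.96, 5.88 and 5.96 and the AZD4573 libraries 7.62, 7.77 and 7.70. The GSPT1 to GSPT2 ratio went from 31.2 to 62.8 (log2 difference 1.01), that of EIF4A1 to EIF4A2 from 1.82 to 3.04 (0.74), that of EIF1 to EIF1B from 8.35 to 11.2 (0.43) and that of EEF1A1 to EEF1A2 from 2327 to 3135 (0.43). In each of these pairs the ratio of the first named gene to the second went up. Counts are not divided by transcript length, so that the change of a ratio and not its size can be read. The ratio of EIF4A1 to EIF4A3 moved by 0.20 in the same sense. EIF4G1 lost ground to the minor scaffold EIF4G3, from 14.6 to 9.09 (log2 difference -0.68), and EIF4E to EIF4E2, from 1.39 to 0.855 (-0.70). Per kb of canonical transcript EIF4E was below EIF4E2 in both groups, at 32.5 and 58.8 CPM per kb with DMSO and 11.5 and 33.5 with AZD4573. This order depends on the length used. The canonical transcript has 2427 bases for EIF4E and 967 for EIF4E2, while the counts cover all transcripts of a gene (4971 and 11481 exon bases). All these 8 pairs had separate groups and the smallest p the design allows (exact permutation p = 0.10), and none could pass 0.05. For EIF3C to EIF3CL (log2 difference 0.11, exact permutation p = 0.2) and EIF4G1 to EIF4G2 (-0.03, exact permutation p = 0.6) the groups overlapped.

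**Figure D5:**
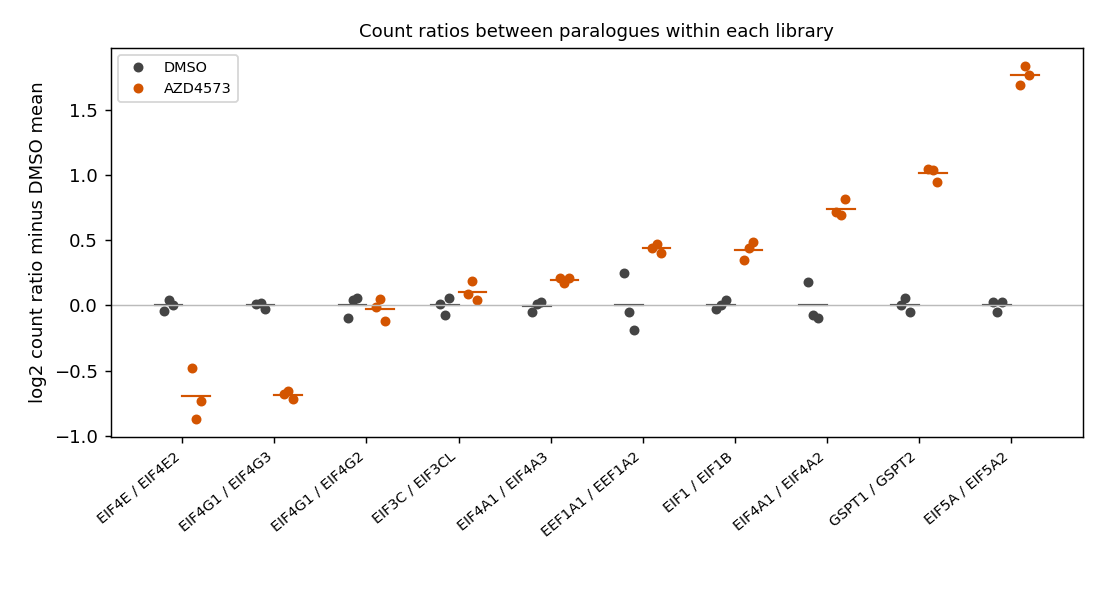
The log2 ratio of counts between 2 paralogues within each library, minus the mean of the DMSO libraries, for 10 pairs; grey points are DMSO libraries, orange points AZD4573 libraries and lines group means. The ratio of EIF5A to EIF5A2 lies 1.76 above and that of EIF4E to EIF4E2 lies 0.70 below the controls, while the groups mix for EIF4G1 to EIF4G2 and EIF3C to EIF3CL.

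The start sequences printed above were then counted over the 55 members with a promoter entry in RefSeq (GRCh38.p14), which is 80.9% of the members, and over all 27305 genes with one. C at an annotated start followed by at least 4 of C or T, read on the strand of the gene, was present for 13 members (23.6%) and 5.14% of all genes. These 13 were EEF1A1, EEF1B2, EEF2, EIF2A, EIF2D, EIF2S3, EIF2S3B, EIF3D, EIF3F, EIF3K, EIF3M, EIF4A2 and EIF4B. Of them 8 rose and EIF4A2 alone fell with TMM scaling (median log2 fold change 0.30). Among the 41 tested members with an entry but without the motif, 11 rose and 26 fell (median -0.29). Members without a promoter entry, which these counts leave out, rose more often than they fell. Over all 67 members tested 28 rose and 28 fell, so the members with an entry lean lower than the whole group. Under mitochondrial scaling none of the 13 rose. Over the tested genes with a promoter entry, a part of the 17678 tested, the gap was smaller. Of the 826 with the motif 45.9% were called higher, and of the 10596 without it 35.1%, with medians of 0.11 and -0.07. Rises without a pyrimidine start included EEF2K and EEF1G, whose annotated start lies in a different sequence. These counts describe letters at annotated starts and were not tested.

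TATAA on the strand of the gene, starting 40 to 20 bases before the start, was present for EEF1A1, EEF1B2, EEF2, EIF1, EIF4A1, EIF4A2 and EIF4B, 7 members (12.7%) against 4.94% of all genes. Of these 4 rose, 2 fell and EIF1 was not called, beside 15 up and 25 down among the 47 tested members without it, and of all tested genes with it 40.8% were called higher and 38.2% lower. All but EIF1 and EIF4A1 also have the pyrimidine start. The E-box CACGTG, which reads the same on both strands, occurred within the 300 bases around the start of 13 members (23.6%) and 8.77% of all genes. Of those members 4 rose, EEF2K among them, and 8 fell, with EIF4E and EIF5A2, and the median was -0.30, beside 15 up, 19 down and a median of -0.06 for the 41 tested members without it. Of all tested genes with CACGTG, 34.9% were called higher and 46.1% lower, with a median of -0.10. Of the 10016 tested genes with an entry but without CACGTG, 36.0% were called higher, with a median of -0.05. As for the pyrimidine start, members without a promoter entry are left out of the TATAA and CACGTG counts.

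Levels of different genes are compared here mainly per length, as CPM per kb of the canonical transcript. The count ratios of paralogues, the shares of member counts and the counts of overlapping genes given above are not divided by length. On that scale EEF1A1 (2116 CPM per kb with DMSO), EEF1G (1190), EEF2 (1074), EIF5A (759) and EEF1B2 (539) led the members, and each of them rose with TMM scaling. EIF2S3B (0.274), EIF5AL1 (0.591) and EIF4E3 (0.651) were the lowest of those tested. Among eIF3 subunits the DMSO level ran from 25.4 CPM per kb for EIF3F to 281 for EIF3G. Such differences depend on the annotated length, as counts cover all transcripts of a gene. The canonical transcript of EIF3F has 6920 bases and that of EIF3G 1103, while before division by length EIF3F (176 CPM) was close to EIF3H and EIF3K (181 CPM each). Among the core of eIF4F the DMSO level was 32.5 CPM per kb for EIF4E, 368 for EIF4A1 and 203 for EIF4G1. With AZD4573 the level of EIF4E was 11.5 CPM per kb, that of EIF4A1 327 and that of EIF4G1 146. Across the 67 members tested, the log2 fold change had a Spearman correlation of 0.24 with the DMSO level per kb and of 0.07 with the genomic span of the canonical transcript, given as descriptions over genes that share libraries. The 33 members that span less than 20 kb had a median log2 fold change of -0.05, the 24 that span 20 to 50 kb one of 0.04 and the 10 that span over 50 kb one of -0.02, beside 0.14, -0.10 and -0.04 for all genes in these ranges.

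Replicates lay close together for most members, yet differed by more than counting noise. Over all genes the chi-square per degree of freedom between 2 libraries of a group was 8.36 to 21.5 with DMSO and 5.62 to 9.35 with AZD4573. Members of a role group could also deviate together. The median log2 deviation of the elongation factors was 0.05, -0.02 and -0.07 in DMSO replicates 1 to 3 and -0.05, -0.02 and 0.07 in AZD4573 replicates 1 to 3. Over 66 members the median coefficient of variation between libraries was 4.3% with DMSO and 3.46% with AZD4573, with the highest values for EIF2S3B with DMSO (26.2%) and EEF2KMT with AZD4573 (20.9%).

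The wider pathway was followed through 42 partner genes outside the symbol rule, of which 41 were tested. With TMM scaling 12 rose, 22 fell and 7 were not called (median log2 fold change -0.23), while 1 was higher and 34 lower with mitochondrial scaling. Of all genes tested, 37.3% were called higher and 37.4% lower with TMM scaling (median 0.03). These shares are also the background for the smaller partner lists below, and no difference from them was tested. EIF4EBP1, the repressor that sequesters eIF4E until mTORC1 phosphorylates it, was at 131, 119 and 118 CPM with DMSO and at 193, 198 and 210 CPM with AZD4573 (log2 0.71, SE 0.0506, edgeR adjusted p = 2.6e-08). Its groups were separate, and the direction was opposite to that of EIF4E with TMM scaling, while with mitochondrial scaling EIF4EBP1 was at -0.03 (edgeR adjusted p = 0.66). EIF4EBP2 was not called (log2 0.09, edgeR adjusted p = 0.0668), and EIF4EBP3, which did not pass the filter, had 0 counts in each DMSO library and 0.118 to 0.175 CPM with AZD4573.

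Genes for poly(A) and cap partners were evenly divided with TMM scaling, 4 up and 4 down of 10. With mitochondrial scaling PAIP2B stayed higher (log2 0.40, edgeR adjusted p = 0.0028), PABPC1 was at 0.09 and not called (edgeR adjusted p = 0.12), and the other rises, PAIP2 and PDCD4, were at -0.07 and -0.11. PABPC1, the poly(A)-binding protein that bridges the tail to eIF4G, was at 2226, 2184 and 2156 CPM with DMSO and at 3792, 3894 and 4000 CPM with AZD4573 (log2 0.83). Its inhibitors PAIP2 and PAIP2B rose too, PAIP2 from 71.1, 65.2 and 64.7 CPM to 103, 106 and 109 CPM (log2 0.67). PAIP2B went from 4.69, 4.5 and 4.04 CPM to 8.86, 10.5 and 9.84 CPM (log2 1.14). DDX3X, a helicase for structured leaders, fell as far as any partner tested, level with DPH2, from 577, 585 and 585 CPM to 236, 234 and 228 CPM (log2 -1.32, SE 0.0389, edgeR adjusted p = 2e-11). The groups were separate in PABPC1, PAIP2, PAIP2B and DDX3X. The other falls of this list were ABCF1 (log2 -1.01), PAIP1 (log2 -0.98) and DHX29 (log2 -0.23), so its members went both ways.

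Of 10 genes for mTORC1 and MNK signalling 2 rose and 6 fell, MTOR itself not being called (log2 -0.02, edgeR adjusted p = 0.707). RPS6KB1, which encodes one S6 kinase, fell from 99.7, 104 and 104 CPM to 53.6, 49.8 and 46.7 CPM (log2 -1.04). RPS6KB2, which encodes the other, rose with TMM scaling, from 81.6, 77.2 and 76.3 CPM to 116, 120 and 120 CPM (log2 0.60, edgeR adjusted p = 3.9e-08), and was at -0.14 with mitochondrial scaling (edgeR adjusted p = 0.052). PPP1R15A (GADD34), which brings the phosphatase to eIF2α and so opposes the eIF2α kinases, fell from 47.9, 47.9 and 45.9 CPM to 20.6, 22.8 and 22.1 CPM (log2 -1.11), and of the 5 genes of that list 1 rose and 3 fell. Of 8 enzymes for hypusine on eIF5A and diphthamide on eEF2, 2 rose and 5 fell, DPH2, which starts diphthamide synthesis, the most, from 94.8, 92.6 and 91.1 CPM to 39.9, 36.5 and 35 CPM (log2 -1.32). Of 6 genes for re-initiation, ribosome rescue and recycling 2 rose and 4 fell. LARP1, which binds TOP mRNAs, was not called (log2 0.09, edgeR adjusted p = 0.053); MTOR, LARP1, RPS6KB2 and PDCD4 were singled out after their values were seen.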

How the data were processed

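RNA of H9 cells was sequenced (3 DMSO and 3 AZD4573 libraries, grouped by their labels); the labels give poly(A) selection and the supplemental methods ribosomal RNA depletion. The authors trimmed reads with Cutadapt 2.3, aligned them to GRCh38 with STAR 2.7.8a and deposited expected counts per gene from RSEM 1.3.3 at default settings, which ignore strand and divide reads shared by similar genes. The values are whole numbers and not normalised. The table holds 61541 genes and 5 reporter sequences.

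Genes were filtered (minimum count 10), normalised by TMM and compared with the edgeR 4.0.16 quasi-likelihood test in R 4.3.3, adjusted over all 17678 genes tested (Benjamini-Hochberg) and called at 0.05, with and without 1.5-fold. CPM values are TMM-normalised. Per-library values were given for the largest rise and fall in each role group, paralogue pairs, the 5 largest rises and falls, and the 4 largest of the partners in each direction. EIF3H, EIF5 and EEF2 were added after their values were seen. Members and lists were chosen with earlier results of these data known. DESeq2 1.42.0, other scalings and filters, a replicate block, sums with pseudogenes and each library left out were tried. Positions came from GENCODE release 44. The procedure was tested on simulated data.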

Additional observations from a re-analysis of the deposited data

How the results depend on the processing

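Of 66 members followed (EIF1AY was not followed), 29 kept direction and call under each alternative run and 52 under each but mitochondrial scaling. Of 924 values, 854 kept both, 14 lost and 15 gained the call, and 41 reversed, 32 of them with mitochondrial scaling. That scaling moved the members to 1 higher and 61 lower (0 and 38 by at least 1.5-fold; median -0.71) and the partners to 1 and 34. The log2 fold changes it reversed were EEF1A1 (-0.16), EEF1A2 (-0.58), EEF1AKMT1 (-0.33), EEF1AKMT2 (-0.61), EEF1B2 (-0.13), EEF1D (-0.27), EEF1G (-0.05), EEF2 (-0.33), EIF1 (-0.69), EIF2AK1 (-0.51), EIF2AK4 (-0.41), EIF2B2 (-0.30), EIF2D (-0.12), EIF2S2 (-0.43), EIF2S3 (-0.68), EIF3C (-0.37), EIF3CL (-0.48), EIF3D (-0.45), EIF3E (-0.49), EIF3F (-0.13), EIF3G (-0.49), EIF3H (-0.15), EIF3I (-0.30), EIF3K (-0.24), EIF3L (-0.26), EIF3M (-0.69), EIF4B (-0.44), EIF4E3 (-0.53), EIF4G3 (-0.53), EIF4H (-0.71), EIF5A (-0.41) and EIF5AL1 (-0.29). Of these, EEF1B2, EEF1G, EIF2D, EIF3F and EIF5AL1 were not called there. The other reversals were values near 0: EIF1 (-0.05), EIF2S3 (-0.04), EIF3M (-0.06) and EIF4H (-0.08) with library size only, EIF4H (-0.02) without a filter, EIF3A with RLE factors (0.00), at least 10 counts in every library (0.03) and without AZD4573 replicate 3 (0.02), EIF2S3B without DMSO replicate 3 (0.06, and -0.31 without DMSO replicate 2), and the ratio of EIF4G1 to EIF4G2 without DMSO replicate 3 (0.00) or AZD4573 replicate 3 (0.02). Members higher by 1.5-fold, 6 in the main comparison, were 1 with library size only and 2 without a filter, where the median was -0.08 and -0.02. The median was 0.06 with at least 10 counts in every library. Leaving out 1 library gave 3 to 7 such members, 3 without DMSO replicate 2 or AZD4573 replicate 3 and 4 without DMSO replicate 3. The causes were not tested. Replicate numbers did not pair the libraries (correlations of same-numbered deviations -0.0208, 0.0417 and 0.0316); with a replicate block 27 members were higher and 28 lower, and EEF1AKMT2 alone was no longer called. Summing members with their pseudogenes changed no call. Depth limits the 6 members with a mean under 5 CPM (EEF1A2, EEF1AKMT1, EEF1AKMT3, EEF2KMT, EIF2S3B and EIF5AL1), which had 34 to 471 counts a library and log2 standard errors of 0.122 to 0.273, against a median of 0.0473 for the other 60, and 3 libraries a group limit the paralogue tests.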
